A study of Mus musculus with 34 samples.

Results

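The 10 genes described here are a chosen list from the metal and oxidative stress response, followed in the mouse heart left ventricle (LV) after myocardial infarction (MI): the metallothioneins Mt1 and Mt2, the heme oxygenase Hmox1, the quinone reductase Nqo1, the glutathione genes Gclm, Gclc and Slc7a11, the thioredoxin-system genes Txnrd1 and Srxn1, and the transcription factor gene Nfe2l2. They were taken by gene symbol, but with earlier results of these data known, which limits what the counts of members below can show. Each has 1 row in each of 2 expression tables, so that they were 10 of 14552 genes in the first table and 10 of 17406 genes in the second. All 10 had a mean of at least 1 CPM, the normalized read count relative to library size, over the libraries of each table and entered the tests there. Slc7a11 did so through the infarcted hearts, since it was under 1 CPM in every sham library.

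All mice were CFW, an outbred stock, and the labels gave neither age nor sex. The first table held 10 libraries from mice without injection: 3 sham hearts (libraries D, H and I), 3 hearts at 4 h after MI (C, D and E) and 4 hearts at 24 h after MI (C, D, G and H). The study's methods describe the 3 controls as sham operated, whereas their labels read no operation. If the labels hold, the first table's comparisons with sham also hold the operation. No time is given for these controls. The second table held 24 libraries: 2 sham-operated hearts at 4 h without injection (1 and 2), and infarcted hearts injected with modified mRNA (modRNA) called AC or Luc at 4 h (4 and 4 libraries), 24 h (3 and 3) and 48 h (4 and 4). Luc is the luciferase reporter, and the labels did not spell out AC. MI was made by tying off the left anterior descending artery for good, a model without reperfusion, and modRNA was delivered to the border zone directly after the ligation. The second table has no sham heart at 24 or 48 h and no sham heart with an injection, so its comparisons with sham also hold the injection and, at the later times, the age of the operation.

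NRF2, the protein encoded by Nfe2l2, is held low by KEAP1 under basal conditions and, once oxidants or electrophiles modify KEAP1, enters the nucleus and binds antioxidant response elements of genes such as Nqo1, Gclm, Gclc, Txnrd1, Srxn1, Slc7a11 and Hmox1. Metallothioneins are small cysteine-rich proteins that bind zinc and copper, and their genes are driven through metal response elements by the zinc sensor MTF1 and through other sites by glucocorticoids and cytokines. In the infarcted heart, reactive oxygen species come both from ischemic myocytes and from the NADPH oxidase of entering neutrophils and macrophages.

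In the first table the lowest value of each library was taken as 1 read, and in the second the most frequent low value above 0. This put 12553519 to 18952669 reads on the listed genes in the libraries of the first table and 17091513 to 22192765 in those of the second. A single read was worth 0.0313 to 0.0479 CPM in the first table and 0.0241 to 0.042 CPM in the second. The heart label held in every library, where the summed cardiomyocyte markers were at least 12585 CPM. Of 4 atrial markers, 2 were listed in the first table and 3 in the second, where their sum reached 352.7 CPM in an AC library at 24 h against 0.946 to 1.49 CPM in sham. Asah1, the acid ceramidase gene, was looked at after its values were seen and was 5296 to 13703 CPM in the AC libraries at 4 h against 23.9 to 27.2 CPM in the Luc libraries. In the library names of the second table, the sham and 4 h libraries share a running index, the 48 h libraries have another and the 24 h libraries have none, so a change at 24 or 48 h cannot be told apart from that grouping, whereas AC and Luc libraries of a time share it. The 24 h names of that table alone also carry the letters Br, whose meaning was not established here. The tables were normalized separately, and no level was compared between them.

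The promoters of Mt2 and Srxn1 are printed because they hold several copies of a motif, and because these 2 genes ran different courses in the values that follow. For each, the sequence is the 250 bases before the start on the plus strand (RefSeq, GRCm38.p6), chr8:94172368-94172617 for Mt2 with matches to the metal response element core TGCNCNC in capitals, and chr2:152105274-152105523 for Srxn1 with matches to the AP-1 site TGANTCA in capitals.
Mt2: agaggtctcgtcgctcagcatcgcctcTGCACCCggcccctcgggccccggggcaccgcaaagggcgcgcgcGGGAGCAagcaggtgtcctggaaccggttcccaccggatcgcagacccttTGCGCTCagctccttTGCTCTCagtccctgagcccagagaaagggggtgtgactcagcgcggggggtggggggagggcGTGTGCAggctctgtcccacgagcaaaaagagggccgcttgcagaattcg
Srxn1: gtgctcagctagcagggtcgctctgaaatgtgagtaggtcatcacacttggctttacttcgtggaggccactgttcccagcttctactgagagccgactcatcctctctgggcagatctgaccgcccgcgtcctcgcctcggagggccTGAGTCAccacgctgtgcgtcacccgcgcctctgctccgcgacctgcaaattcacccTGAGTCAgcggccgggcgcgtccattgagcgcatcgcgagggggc

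Entries were found for 8 of the 10 members, all but Hmox1 and Gclc, and both strands were searched. The Mt2 promoter held 5 metal response element cores, where 44.4% of 32851 promoters of this length held at least 1 and 0.344% held at least 5. It also held TGACTCAGC, a match to the antioxidant response element core TGACNNNGC that overlaps an AP-1 match, 79 bases before the start. The Mt1 promoter, by contrast, held 1 metal response element core before the start the files give, although RefSeq also lists an earlier one, and Mt1 (chr8:94179089-94180327) starts 5521 bases beyond the end of Mt2 (chr8:94172618-94173567) on the same strand of mm10. Gclm and Nqo1 held 2 metal response element cores each, where 15.2% of promoters held at least 2. Srxn1 and starts 1 and 3 of Txnrd1 held 1 each. The Srxn1 promoter (gene at chr2:152105524-152111376) held 2 AP-1 sites, 102 and 45 bases before the start, and 0.338% of promoters held at least 2. The antioxidant response element core was in 10.2% of promoters, among them those of Gclm, Nfe2l2 and 1 of the 3 starts of Txnrd1, and the E-box CACGTG, in 6.02% of promoters, was in none of the members' sequences. These are matches of letters only.

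The first comparison asks how the members stood in uninjected hearts at 4 and 24 h after MI. Both metallothioneins were higher by 4 h in every library and higher again at 24 h. Mt2 was at 9.11, 2.9 and 1.98 CPM in the sham hearts D, H and I, at 45.7, 148.4 and 45.8 CPM in the 4 h hearts C, D and E, and at 434.3, 659.9, 220.2 and 330.7 CPM in the 24 h hearts C, D, G and H. No library of a later time overlapped an earlier one, although the 3 sham hearts and the 3 hearts at 4 h were each spread widely. Group means were 4.67 ± 3.88 (SD, n = 3), 79.9 ± 59.3 (n = 3) and 411.3 ± 187.4 CPM (n = 4). On the log2(CPM + 1) scale, on which all fold changes here were tested with limma and which compresses the change of weakly expressed genes, Mt2 was higher than sham by 3.81 (SE 0.55) at 4 h, with a Benjamini-Hochberg adjusted p-value (q) of 0.0037. At 24 h the difference from sham was 6.28 (SE 0.51; limma q = 1.8e-06).

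Mt1 was at 56.7, 32.8 and 25.9 CPM in the sham hearts, at 88.9, 176.5 and 83.7 CPM in the 4 h hearts and at 453.5, 673.5, 252.2 and 397.4 CPM in the 24 h hearts. The groups again did not overlap. The 4 h difference from sham, 1.56 (SE 0.38), missed the threshold (limma q = 0.064), while the 24 h difference of 3.49 (SE 0.36) passed it (limma q = 8.6e-06). The 4 h value of Mt1 passed when sham D was left out (q = 0.044), when 24 h D or G was left out (q = 0.046 and 0.022), and with only the 2 groups in the model (q = 0.028) or array weights (q = 0.0022). Mt1 and Mt2 are related genes, and the expectation-maximization counting splits any read that matches both; how many reads did so was not measured. Their sum, free of such a split, was 27.9 to 65.8 CPM in sham, 129.5 to 324.9 CPM at 4 h and 472.4 to 1333 CPM at 24 h, higher than sham by 2.12 at 4 h (SE 0.43; limma q = 0.03) and by 4.27 at 24 h (SE 0.41; limma q = 4.9e-06). Mt2 lies over exons of Gm45774 on the other strand, and the sources used here do not say whether counting used strand, although the kit marks it.

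**Figure D1:**
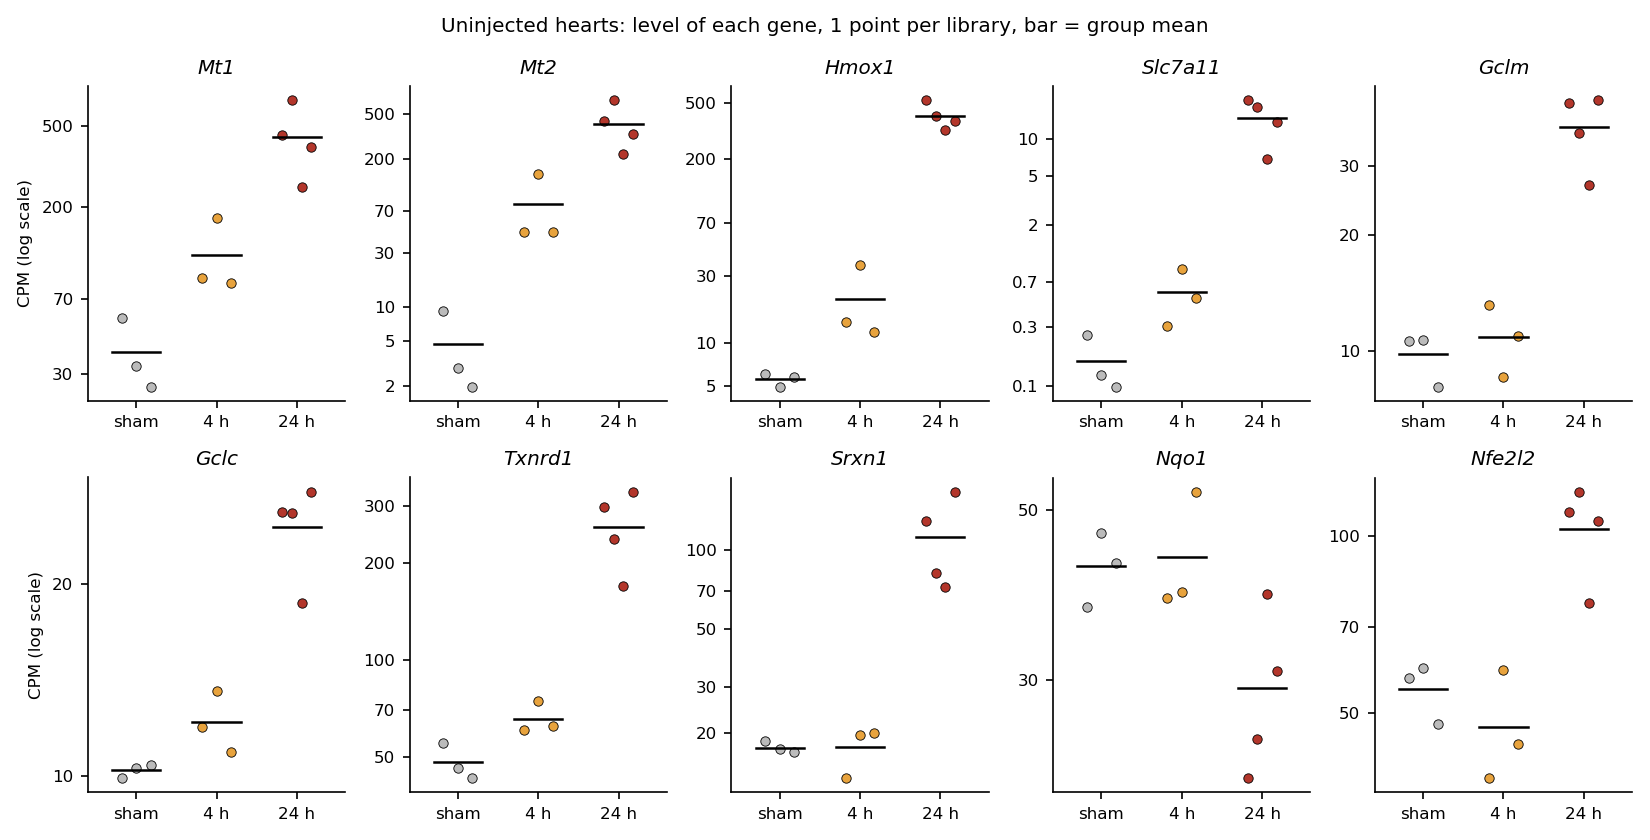
CPM of the 10 members in each uninjected library (points, log axis in each panel) with the mean of each group as a bar, for 3 sham hearts, 3 hearts at 4 h and 4 hearts at 24 h after MI. Mt2 and Hmox1 stepped up at both times without overlap, Srxn1, Gclm and Gclc were near sham at 4 h and above it in all 4 hearts at 24 h, and Nqo1 at 24 h (22.4 to 38.9 CPM) lay at or under its range in sham (37.4 to 46.6 CPM).

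Hmox1, whose product opens the heme ring to biliverdin, iron and carbon monoxide, was even in the sham hearts at 6.07, 4.92 and 5.79 CPM. It was at 14.1, 35.8 and 12 CPM at 4 h and at 518.9, 399.8, 318.6 and 370 CPM at 24 h. All 4 h hearts were above all sham hearts, and all 24 h hearts were above all 4 h hearts. The 4 h rise was 1.55 (SE 0.32; limma q = 0.03), a call lost when 4 h C (q = 0.055), 24 h H (q = 0.051) or any sham heart (q = 0.064 to 0.14) was left out, and with limma-voom on the estimated reads (q = 0.058). At 24 h Hmox1 was higher by 5.91 (SE 0.30; limma q = 1.1e-07), and its ratio of means to sham was 71.8 ± 17 (SD propagated from both groups).

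Slc7a11, the light chain of the cystine-glutamate exchanger that feeds cysteine to glutathione synthesis, was near the limit of detection before 24 h. In sham it was at 0.261, 0.124 and 0.0998 CPM, about 7.2, 3.1 and 3.1 estimated reads, and at 4 h it was at 0.31, 0.89 and 0.522 CPM. The 4 h values lay above the sham values, but the difference of 0.42 was not called (limma q = 0.54). At 24 h it was at 20.4, 18.1, 6.88 and 13.6 CPM, or 170.8 to 577.5 estimated reads, which was higher than sham by 3.67 (SE 0.29; limma q = 1.5e-06).

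The glutathione-synthesis pair was called higher than sham at 24 h and not at 4 h. Gclm, the modifier subunit of glutamate-cysteine ligase, was at 10.6, 10.7 and 8.09 CPM in sham, at 13.2, 8.57 and 10.9 CPM at 4 h and at 43.8, 36.6, 26.9 and 44.4 CPM at 24 h. The 4 h hearts fell on both sides of the sham hearts, and every 24 h heart was above both groups, with a 24 h difference from sham of 1.83 (SE 0.19; limma q = 8.9e-06). Gclc, the catalytic subunit, was at 9.91 to 10.4 CPM in sham, at 10.9 to 13.6 CPM at 4 h and at 18.6 to 27.9 CPM at 24 h, a 24 h rise of 1.18 (SE 0.14; limma q = 1.9e-05). At 4 h the differences of Gclm (0.13, limma q = 0.81) and Gclc (0.23, q = 0.48) were not called. Gclm overlaps exons of Gm6061 on its own strand and of Gm17494 on the other, so its reads may be shared with them.

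In the thioredoxin system, Srxn1, the sulfiredoxin that repairs over-oxidized peroxiredoxins, was at 18.6, 17.3 and 16.9 CPM in sham, at 13.5, 19.7 and 20.1 CPM at 4 h and at 129.3, 81.5, 72.5 and 167.2 CPM at 24 h. The sham and 4 h hearts overlapped, with a difference of -0.01 (95% interval -0.61 to 0.59), and the 24 h rise was 2.53 (SE 0.25; limma q = 7.2e-06). Txnrd1, the cytosolic thioredoxin reductase, was at 43.2 to 55.4 CPM in sham, 60.7 to 74.5 CPM at 4 h and 168.9 to 331.3 CPM at 24 h. Its 4 h hearts lay above the sham hearts without passing the test (0.44, limma q = 0.34; q = 0.034 with array weights), and it rose by 2.36 at 24 h (SE 0.20; limma q = 2.3e-06).

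Nfe2l2 itself was at 57.5, 59.6 and 47.9 CPM in sham, at 38.8, 59.3 and 44.4 CPM at 4 h and at 110, 119, 77.1 and 106.2 CPM at 24 h. The 4 h hearts overlapped the sham hearts (-0.22, limma q = 0.6), and the 24 h hearts were all higher, by 0.88 (SE 0.17; limma q = 0.00082). Nqo1, which reduces quinones by 2 electrons at once, was the only member that fell at 24 h in the test. It was at 37.4, 46.6 and 42.7 CPM in sham, at 38.4, 39.1 and 52.8 CPM at 4 h and at 22.4, 25.2, 38.9 and 30.9 CPM at 24 h. Library G of 24 h lay inside the sham range, so the groups overlapped, and the difference from sham was -0.54 (SE 0.18; limma q = 0.021). That call was lost without 24 h C or D (q = 0.053 for each), sham H (q = 0.081) or sham I (q = 0.056).

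Counted together, 2 of the 10 members were called higher at 4 h (Mt2 and Hmox1) and 0 lower. Of all 12487 genes tested, 1.55% were called higher, and 102 genes were called lower. At 4 h the infarcted hearts lay above the sham hearts without overlap for 6 members, as for 10.9% of genes. At 24 h, 9 members were called higher and Nqo1 lower, where 35.6% of genes were called higher and 30.3% lower. The 24 h hearts lay above the sham hearts without overlap for 9 members, against 35.3% of genes. Slc7a11, which entered the tests only through the infarcted hearts, is counted in these 9, in the 9 called and in the 6 at 4 h. The median member difference was 0.33 at 4 h and 2.44 at 24 h, and the median of all genes was -0.03 and 0.04. Between 4 and 24 h, 9 members rose, where 37.2% of genes did, and Nqo1 fell, where 26.7% did. The largest of these steps were 4.36 for Hmox1 (limma q = 1e-06) and 3.24 for Slc7a11 (q = 4.7e-06), and that of Nqo1, -0.56 (q = 0.017), was not called without 4 h E (q = 0.086).

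**Figure D2:**
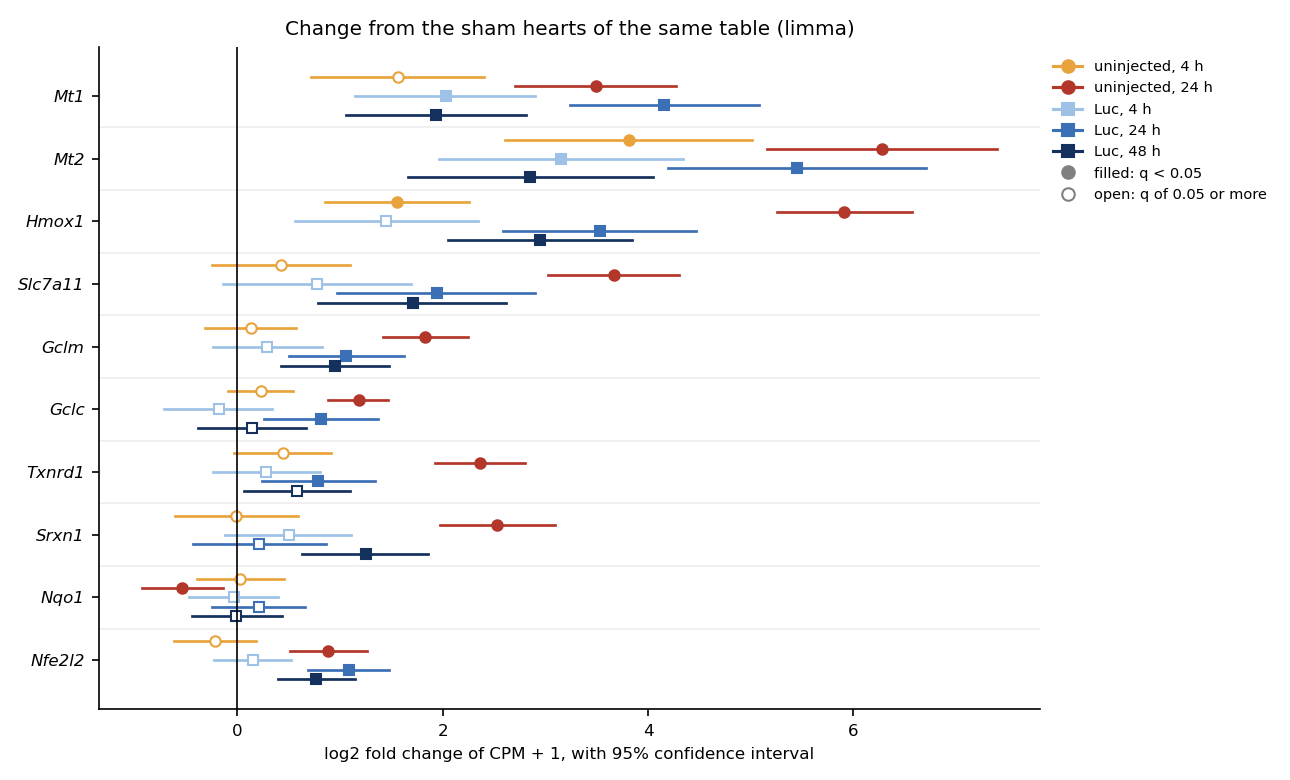
Difference from sham of each member on the log2(CPM + 1) scale (points, with 95% confidence intervals), for uninjected hearts at 4 and 24 h against the 3 sham hearts of the first table, and for Luc hearts at 4, 24 and 48 h against the 2 sham hearts of the second. Filled points have a q value under 0.05. Mt2 has the largest difference in each table at 4 and 24 h, and Nqo1 lies between -0.03 and 0.21 except at 24 h without injection (-0.54).

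Markers of several cell types moved with these values. At 4 h the summed erythroid markers were 435.3 to 751 CPM against 161.1 to 247 CPM in sham, with 4 of 5 called higher, and at 24 h none of the 5 was called. The summed neutrophil markers were 1.33 to 1.82 CPM in sham, 7.33 to 30.9 CPM at 4 h and 1835, 1641, 286.4 and 776.8 CPM in the 24 h hearts C, D, G and H, with 6 of 6 markers called higher at 24 h, 0 of 6 at 4 h, and none at 0 through a whole group. The summed cardiomyocyte markers were 32027 to 32531 CPM in sham and 12585 to 20562 CPM at 24 h, highest in library G. At 24 h, 3 of 6 monocyte and macrophage markers were called higher, 4 of 6 fibroblast markers lower, and of 6 endothelial markers 1 higher and 3 lower. Library G, singled out after the member values were seen, was also the 24 h heart nearest to the sham mean for 10 of 10 members, as for 50% of genes tested. Without it, the differences from sham at 24 h were 6.54 for Mt2, 6.02 for Hmox1, 3.97 for Slc7a11, 3.73 for Mt1 and -0.68 for Nqo1. The part of these cell markers in the member values was not tested, and in whole tissue fewer cells of a type and less RNA per cell cannot be told apart.

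The second table followed the injected hearts to 48 h. The Luc hearts are described first, as the injected controls, against 2 sham hearts. The metallothioneins are given first. Mt2 was at 15.3 and 17.8 CPM in sham and at 256.3, 113.5, 159.8 and 122.1 CPM in Luc libraries 1 to 4 at 4 h. It was at 732.9, 675.7 and 906 CPM in Luc A, C and D at 24 h and at 270.8, 71.1, 291 and 43.9 CPM in Luc 1 to 4 at 48 h. Thus all Luc hearts exceeded sham, the 24 h hearts were the highest, and the 48 h hearts fell into 2 high and 2 low libraries. Against sham, Mt2 was higher by 3.15 at 4 h (SE 0.58; limma q = 0.0037), by 5.45 at 24 h (SE 0.61; q = 1.2e-06) and by 2.85 at 48 h (SE 0.58; q = 0.00084).

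Mt1 followed the same order, with 44 and 53.9 CPM in sham, 171.1 to 311.8 CPM at 4 h, 744.1 to 1062 CPM at 24 h and 303, 121.1, 370.3 and 93.5 CPM in Luc 1 to 4 at 48 h. Its differences from sham were 2.03 (limma q = 0.011), 4.16 (q = 7.3e-07) and 1.93 (q = 0.0016). The 4 h calls of both genes were lost without sham 1 (q = 0.23 for Mt1 and 0.11 for Mt2), which leaves a single sham library whose spread is borrowed from the other groups. From 24 to 48 h, Mt2 fell by 2.60 (SE 0.51; limma q = 0.00049) and Mt1 fell by 2.22 (SE 0.37; q = 0.00013), with no overlap between the Luc hearts of the 2 times.

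Hmox1 was at 10.2 and 13.3 CPM in sham, at 25.5 to 51.2 CPM at 4 h, at 111.4 to 209.4 CPM at 24 h and at 65.7 to 163.1 CPM in the Luc hearts at 48 h. The 4 h hearts lay above sham without a call (1.45, limma q = 0.1). That difference was called with only the 2 groups in the model (q = 0.011) and without AC c of 24 h (q = 0.03), and the 24 h and 48 h differences were 3.53 (SE 0.46; q = 6.9e-06) and 2.95 (SE 0.43; q = 3.8e-05). It was not called lower at 48 h than at 24 h (-0.58, 95% interval -1.37 to 0.21, limma q = 0.23). Slc7a11 was at 0.205 and 0.0993 CPM in sham, at 0.768 to 1.34 CPM at 4 h, at 9.52, 2.94 and 1.06 CPM in Luc A, C and D at 24 h and at 1.55 to 4.35 CPM at 48 h. It was called higher than sham at 24 h (1.94, limma q = 0.0031) and 48 h (1.71, q = 0.0058), and library A was the highest at 24 h. Without library A the 24 h difference was 1.31 (q = 0.019).

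Srxn1 had its highest Luc levels at 48 h. It was at 27 and 18 CPM in sham, at 26.9 to 35.7 CPM at 4 h, at 32.5, 27.9 and 18.8 CPM at 24 h and at 84.4, 45.5, 69 and 31.3 CPM in Luc 1 to 4 at 48 h. The 24 h hearts overlapped sham (0.21, limma q = 0.63), and the 48 h hearts were higher than sham by 1.25 (SE 0.30; q = 0.0031) and higher than the 24 h hearts by 1.03 (SE 0.26; q = 0.0035), with 1 Luc heart at 48 h inside the 24 h range. The call against sham was lost without sham 2 (q = 0.068) or with only the 2 groups in the model (q = 0.053).

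Nfe2l2 was at 43.9 to 46.2 CPM in sham, at 46.4 to 53.1 CPM at 4 h, at 77.9 to 125.9 CPM at 24 h and at 66.4 to 95.2 CPM at 48 h, higher than sham by 1.09 at 24 h (limma q = 0.0002) and 0.77 at 48 h (q = 0.0029). Gclm was at 8.98 to 9.65 CPM in sham, 14.5 to 28.6 CPM at 24 h and 12.2 to 28 CPM at 48 h, with differences of 1.06 (limma q = 0.0045) and 0.95 (q = 0.0077), the latter lost without sham 2 (q = 0.057), with only the 2 groups in the model (q = 0.072) and with array weights (q = 0.064). Gclc at 24 h was at 24.2 to 24.9 CPM in the Luc hearts against 12.2 to 14.8 CPM in sham (0.81, limma q = 0.022), and by 48 h it was at 11 to 20.8 CPM, on both sides of sham. Txnrd1 was at 81.2 to 141.4 CPM at 24 h against 55.2 to 60.7 CPM in sham (0.79, limma q = 0.025). The 24 h calls of Gclc and Txnrd1 were lost under both other scalings (limma q = 0.085 to 0.17). That of Txnrd1 was also lost without Luc A (q = 0.13) or with array weights (q = 0.061), and that of Gclc without Luc D (q = 0.051). The calls did not hold without sham 1 (0.68 for Gclc and 0.72 for Txnrd1) or, for Txnrd1, without sham 2 (0.86), fits that leave 1 sham heart. Nqo1 was at 50.1 to 73 CPM in the Luc hearts of all times and at 53 and 66 CPM in sham, with differences between -0.03 and 0.21 that were not called (limma q at least 0.5).

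**Figure D3:**
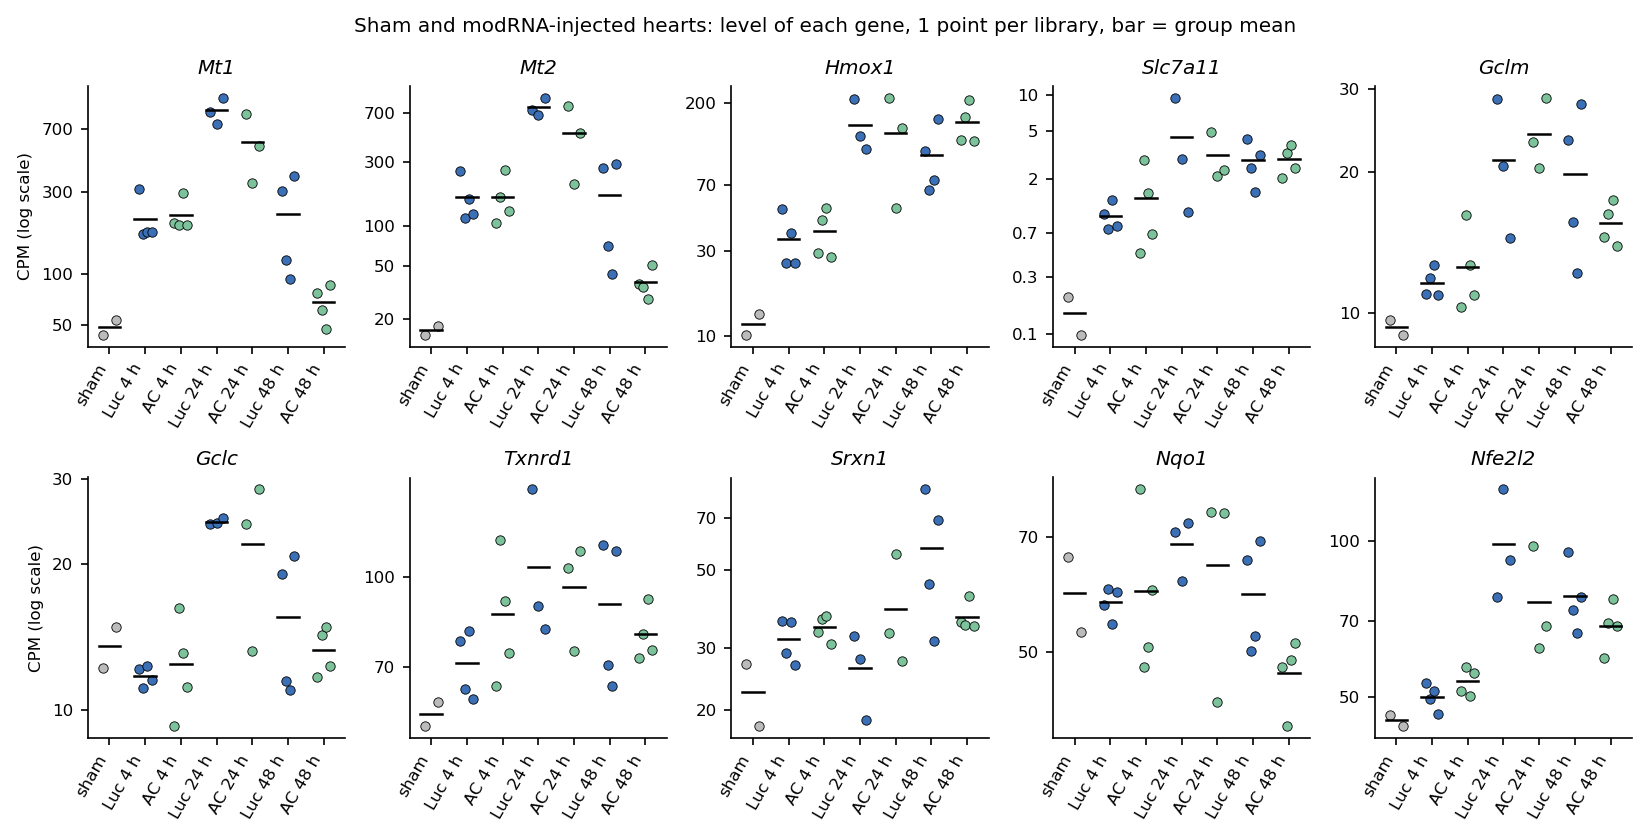
CPM of the 10 members in each library of the second table (points, log axis in each panel) with the mean of each group as a bar, for 2 sham hearts and for Luc and AC hearts at 4, 24 and 48 h after MI. The group means of Mt1 and Mt2 are highest at 24 h in both injections. Times were not tested among the AC hearts, and Mt2 in AC c at 24 h (205.7 CPM) is under AC 3 at 4 h (263.1 CPM). At 48 h the 4 AC hearts lie at 47.5 to 85.8 CPM for Mt1, all under the 4 Luc hearts.

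In counts, 2 members were called higher than sham in the Luc hearts at 4 h, where 1.25% of the 12555 genes tested were, and 7 lay above sham without overlap, where 17.2% of genes did. At 24 h, 8 members were called higher, where 25.3% of genes were, and 8 lay above sham without overlap, where 37.4% did. At 48 h, 7 were called higher, where 13.7% were, and 8 lay above without overlap, where 19.2% did. Slc7a11, which entered the tests only through the infarcted hearts, is in each of these counts except the calls at 4 h. No member was called lower than sham at these times. Over all genes, 37 of 12555 were called lower at 4 h, 8.79% at 24 h and 16.4% at 48 h. From 4 to 24 h, 7 members rose, where 24.5% of genes did, and from 24 to 48 h Srxn1 rose, where 9.32% did, and Mt1, Mt2 and Gclc fell, where 32.6% did. The fall of Gclc, -0.67 (limma q = 0.02), was not called after rescaling by median ratios or to equal totals (q = 0.16 and 0.47), or without Luc D of 24 h or Luc 2 or 4 of 48 h (q = 0.059 to 0.071). The rise of Gclm from 4 to 24 h was not called after those rescalings (q = 0.059 and 0.074) or without Luc A of 24 h (q = 0.11).

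The direction of the calls over all genes depended on the scaling. Of all genes called between Luc hearts and sham at 24 h, 74.2% were higher, against 52.8% after rescaling by median ratios and 42.5% after rescaling to equal totals. At 48 h the same shares were 45.4%, 50.5% and 66.1%, from 4 to 24 h they were 75.9%, 52.4% and 48.2%, and from 24 to 48 h they were 22.3%, 49% and 77.5%. At 4 h they were 80.9%, 77.3% and 70.2%, and in uninjected hearts at 4 h 65.5%, 67.1% and 48.8%. The median of all genes was 0.16 at 24 h, 0.14 from 4 to 24 h and -0.25 from 24 to 48 h on the deposited scale, against -0.01, -0.01 and -0.03 by median ratios and -0.11, -0.05 and 0.18 by equal totals. Member differences are to be read against that shift.

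Cell markers also moved in the second table. Summed cardiomyocyte markers were 34811 to 35478 CPM in sham, 43900 to 57210 CPM in the Luc hearts at 24 h and 22521 to 34377 CPM at 48 h. Summed atrial markers were 45.5 to 190.4 CPM in the Luc hearts at 24 h and 4.35 to 63.4 CPM at 48 h against 0.946 to 1.49 CPM in sham, with 3 of 3 tested called higher at 24 h, as were 3 of 6 fibroblast markers. Summed neutrophil markers were 2.63 and 20.5 CPM in sham, 72.5 to 156.8 CPM in the Luc hearts at 4 h and 44.5 to 89.4 CPM at 24 h. In Luc 1 to 4 at 48 h they were 421.6, 189.2, 195.9 and 113.3 CPM. Of 6 neutrophil markers, 3 were called higher than sham at 4 h, 6 at 24 h and 6 at 48 h. Luc 1 and 3, which held the most Mt1 and Mt2 at 48 h, were above Luc 2 and 4 for 10 of 10 members, as for 31.6% of genes, and also had the most cardiomyocyte markers (34377 and 28994 CPM). This split was chosen after the member values were seen. The CPM of all genes summed to 641170 and 566755 in Luc 1 and 3, against 508204 and 515536 in Luc 2 and 4. At 4 h the summed erythroid markers were 1723 to 2581 CPM in Luc and 2436 to 10695 CPM in AC hearts against 196 and 646.6 CPM in sham. The part of the markers in these values was not tested.

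The next comparison is between AC and Luc hearts at the same time. At 4 h the 2 injections gave closely overlapping values for all 10 members, for example 104.5 to 263.1 CPM of Mt2 in AC against 113.5 to 256.3 CPM in Luc, and 27.8 to 52 CPM of Hmox1 in AC against 25.5 to 51.2 CPM in Luc. None of the 10 members was called, where 0.00796% of genes (1 gene, Asah1) was. The members' 95% intervals ran from -0.97 to 0.98 in all, and 0 members had an unadjusted p under 0.05 in limma, against 131 of all genes. Limma-voom also called 0 members.

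At 24 h, AC library c departed from AC a and d. Mt2 was at 781.5, 205.7 and 496 CPM in AC a, c and d against 675.7 to 906 CPM in Luc, and Mt1 was at 859.7, 337.3 and 558.6 CPM against 744.1 to 1062 CPM. Library c was the lowest AC heart for 9 of 10 members, as for 38.7% of genes, with Srxn1, at 55.3 CPM against 33.1 and 27.6 CPM, as the exception. It was singled out after the member values were seen. Its neutrophil markers summed to 303.9 CPM against 48.9 and 84.8 CPM in a and d, and its cardiomyocyte markers to 37866 CPM against 47018 and 46549 CPM. No member was called at 24 h, where again 0.00796% of genes was, and Nfe2l2 alone (-0.37, limma q = 0.99) had an unadjusted p under 0.05, against 599 of all genes. The intervals ran from -1.95 to 1.08, and limma-voom called 0 members.

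At 48 h the metallothioneins were lower in AC than in Luc hearts. Mt1 was at 77.5, 61.7, 47.5 and 85.8 CPM in AC 1, 2, 4 and 5 against 303, 121.1, 370.3 and 93.5 CPM in Luc 1 to 4, and Mt2 was at 36.7, 34.9, 28.2 and 51.2 CPM against 270.8, 71.1, 291 and 43.9 CPM. For Mt1 every AC heart was under every Luc heart, whereas for Mt2 AC 5 lay above Luc 4. The AC hearts were close together (68.1 ± 17 CPM of Mt1, n = 4), and the Luc hearts were not (221.9 ± 135.7 CPM, n = 4). The difference was -1.49 for Mt1 (SE 0.35; 95% interval -2.21 to -0.78; limma q = 0.0063) and -1.74 for Mt2 (SE 0.47; interval -2.72 to -0.77; q = 0.016). For their sum it was -1.60 (SE 0.39; limma q = 0.0093).

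These calls rest in part on Luc 1 and 3. Without Luc 1, the difference was -1.27 for Mt1 (limma q = 0.031) and -1.37 for Mt2 (q = 0.075), and without Luc 3 the values were -1.17 (q = 0.038) and -1.34 (q = 0.089). The call of Mt2 was also lost without AC 4 (q = 0.054), with only the 2 groups in the model (q = 0.057) and with array weights, which gave -0.85 (q = 0.075). The change of the AC effect between times was not called for either gene: from 4 to 48 h it was -1.59 for Mt1 (limma q = 0.076) and -1.75 for Mt2 (q = 0.15), and from 24 to 48 h it was -0.79 (q = 0.47) and -0.91 (q = 0.55). Without Luc 4 of 48 h, the lowest of its group, the change from 4 to 48 h was called for Mt1 (-1.92, limma q = 0.011) and Mt2 (-2.25, q = 0.022), and without Luc 2 for Mt1 (-1.80, q = 0.045).

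The other 8 members were not called at 48 h. Hmox1 was at 123.6, 167.8, 208.9 and 122.5 CPM in AC against 108.2, 65.7, 163.1 and 74.6 CPM in Luc, a difference of 0.65 (95% interval -0.08 to 1.38; limma q = 0.22) that passed with array weights (0.83, q = 0.033). Srxn1 was at 34.6 to 42.1 CPM in AC against 31.3 to 84.4 CPM in Luc (-0.54, interval -1.04 to -0.04, limma q = 0.13), and passed without Luc 4 (-0.79, q = 0.014). Nqo1 was at 40.2 to 51.4 CPM in AC against 50.1 to 69.3 CPM in Luc (-0.32, interval -0.68 to 0.04, limma q = 0.21). The remaining 5, Gclm, Gclc, Txnrd1, Nfe2l2 and Slc7a11, had differences between -0.27 and 0.04.

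In counts, 2 of 10 members were called lower in AC at 48 h, where 3.27% of genes were called lower and 15.3% in either direction, and 1 was lower without overlap, where 3.58% of genes were. The median member difference was -0.22 and that of all genes 0.14, which was 0.00 after median-ratio and 0.20 after equal-total rescaling. Of the genes called, 78.7% were higher in AC, against 50.6% and 83.3% under those rescalings, and the 2 metallothionein calls held under both. No member was called for a difference between AC effects: from 4 to 24 h, where 0.00796% of genes was called, 0 members and 379 genes had an unadjusted p under 0.05 in limma. From 4 to 48 h, where 3.35% was called, 2 members and 2349 genes did, and from 24 to 48 h, where 2.56% was called, 1 member and 2134 genes did. Limma-voom called 0 members in each of these 3 comparisons. Of the genes called, 86% and 87% were more positive at 48 h than at 4 h and 24 h, against 58.8% and 55.7% by median ratios and 91.2% and 76% by equal totals.

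**Figure D4:**
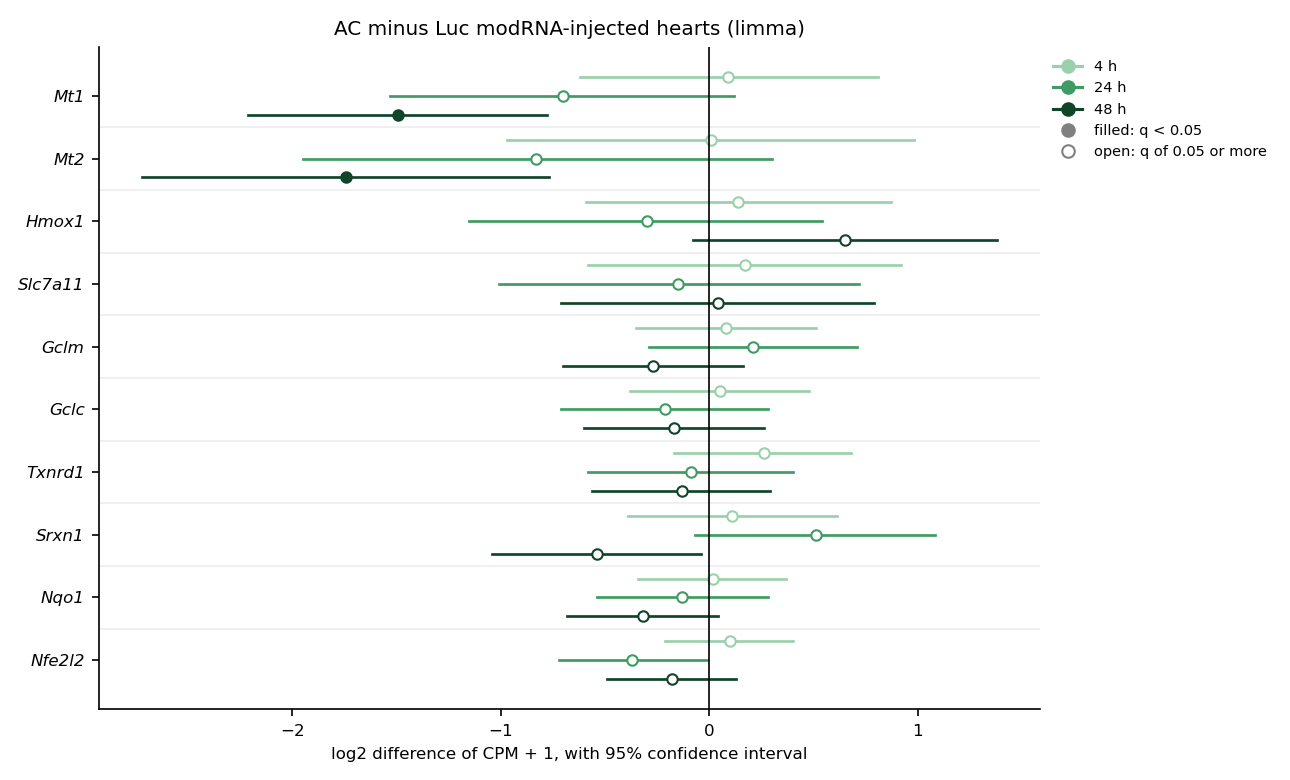
Difference between AC and Luc hearts for each member on the log2(CPM + 1) scale (points, with 95% confidence intervals) at 4, 24 and 48 h after MI, with 4, 3 and 4 libraries of each injection. Filled points, Mt1 (-1.49) and Mt2 (-1.74) at 48 h, have a q value under 0.05, and the 4 h points all lie between 0.01 and 0.26.

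At 48 h the AC and Luc hearts also differed in their cell markers. Summed monocyte and macrophage markers were 402.4 to 557.3 CPM in AC against 184.1 to 247.8 CPM in Luc, with 5 of 6 markers called higher. Summed cardiomyocyte markers were 16145 to 19793 CPM against 22521 to 34377 CPM, with 2 of 6 called lower. Summed neutrophil markers overlapped, at 103.6 to 142.8 CPM against 113.3 to 421.6 CPM, with 1 of 6 called lower. Summed fibroblast markers were 1020 to 1448 CPM against 710.2 to 930.8 CPM, with 3 of 6 called higher. The part of these in the metallothionein difference was not tested.

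Around the members, 55 further genes of the oxidative stress and metal response were followed in 8 lists, of which 52 were tested. In uninjected hearts at 4 h, 2 were called higher, where 1.55% of all genes were, and 0 lower, where 102 of 12487 genes were. Both genes called higher are small MAF partners of NRF2. Maff was at 25.3 ± 7.03 CPM at 4 h against 5 ± 1.73 CPM in sham (n = 3 and 3), a rise of 2.14 (limma q = 0.0014), and Mafk was at 61.1 ± 8.01 against 27.5 ± 4.2 CPM (1.13, limma q = 0.001). At 24 h, 27 of 52 were called higher and 8 lower, where 35.6% and 30.3% of all genes were, with a median difference of 0.35 against 0.04 for all genes. The NADPH oxidase genes rose in 5 of 5 tested (median 3.25), among them the cytosolic subunit genes Ncf4 (3.66, limma q = 3.9e-06) and Ncf1 (3.52, q = 1.6e-05). The NADPH oxidase is best known from phagocytes, and 6 of 6 neutrophil markers rose in the same hearts, whose part in these values was not tested.

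The other lists are small and are to be read against the 35.6% of all genes called higher and 30.3% called lower at 24 h. The NRF2 regulators had 5 of 6 genes higher (median 1.06), the NADPH supply enzymes 4 of 5, the glutathione genes 7 higher and 2 lower of 12, and heme and iron genes 2 higher of 6. Metallothionein and zinc genes other than Mt1 and Mt2 had 1 higher of 3. The thioredoxin and peroxiredoxin genes had 3 higher and 4 lower of 11, and the superoxide dismutases and catalase had 2 lower of 4. The largest falls at 24 h were of the mitochondrial superoxide dismutase Sod2, at 321.7 ± 52.7 CPM against 609.6 ± 46.3 CPM in sham (-0.93, limma q = 0.00014), of the glutathione transferase Gstm1 (-0.72, q = 8.9e-05) and of the mitochondrial thioredoxin reductase Txnrd2 (-0.52, q = 0.00089).

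In the Luc hearts, 1 of the 52 genes was called higher than sham at 4 h, the ferritin light chain Ftl1 (0.89, limma q = 0.021), where 1.25% of all genes were. At 24 h, 22 were higher, where 25.3% of genes were, and 0 lower, where 8.79% were. At 48 h, 11 were higher and 6 lower, where 13.7% and 16.4% of genes were, and the shares over all genes depend on the scaling; the counts in this list were not recomputed under it. At 48 h the NADPH oxidase genes were higher in 4 of 5 and the thioredoxin and peroxiredoxin genes lower in 4 of 11. The largest rises were of Ncf1 (2.29, limma q = 2.5e-07), Ftl1 (1.5, q = 1.4e-05) and the glutathione peroxidase Gpx1 (1.39, q = 0.00094), and the largest falls of the mitochondrial peroxiredoxin Prdx3 (-0.71, q = 0.0046), Gstm1 (-0.70, q = 0.00056) and Txnrd2 (-0.65, q = 0.0032). Between AC and Luc hearts, 0 of the 52 were called at 4 and 24 h, and at 48 h 5 were higher in AC (Cybb, Tkt, Ftl1, Prdx4 and Sod3, by 0.59 to 0.90) and 6 lower (Gsta3, Maff, Gstm1, Cat, Me1 and Sod2, with differences of -1.26 to -0.36), where 12.1% and 3.27% of all genes were.

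The genes most like 3 members were found by Pearson correlation of log2(CPM + 1), which is given as a description, since the libraries of a table share groups, times and depth. Over the 10 uninjected libraries Mt2 was nearest to Ier5 (r = 0.994), Maff (0.993), Il4ra (0.989), Il1r1 (0.988) and Fgl2 (0.987). Over the 24 libraries of the second table it was nearest to Mt1 (0.989), Sphk1 (0.979), Slc25a25 (0.962), and Ccl5 and Hdc (0.948 each). Hmox1 was nearest to Tnfrsf1a (0.995), Rassf1, Eif1a, Ch25h and Ankrd2 in the first table and to Tgif1 (0.945), Uck2, Mmp14 and Csf2rb2 (0.93) in the second. Slc7a11 was nearest to Cxcr2, Sh2d5, Dhrs9 and Hilpda (0.998 each) in the first table, of which Cxcr2 is on the neutrophil marker list, and to Ereg (0.951), Cxcl5, Nlrp3, Akap2 and Csf2rb2 (0.918) in the second.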

How the data were processed

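LV tissue was profiled by poly(A) RNA-seq, 1 library per sample, in 10 uninjected and 24 injected or sham libraries, grouped by their labels. According to the study's methods, the authors aligned single 50-bp reads to mm10 by STAR, assigned them to RefSeq genes by expectation maximization (Partek) and normalized by TMM, and deposited CPM; the methods do not describe the 24 libraries, whose deposited CPM hold an added 1 that was subtracted here. Whether strand was used is not given in the sources used here.

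Differences were tested with limma 3.58.1 (R 4.3.3; lmFit, then eBayes with trend) on log2(CPM + 1), 1 model per table without covariates. Genes averaging 1 CPM or more entered (12487 and 12555), with Benjamini-Hochberg adjustment over all genes tested and a threshold of 0.05. The p-values set a difference between group means against the spread of libraries within groups, which limma estimates over all groups of a table. Too few values under 1 CPM were whole reads (83.2% to 85.2% and 85.3% to 87.6% within 0.05) for a count test, and limma-voom on estimated reads was added after the values were seen. Alternatives were a pseudocount of 0.1, filters at 10 CPM or none, no trend, array weights, only the groups compared, 2 rescalings, Mt1 and Mt2 summed, no subtraction of 1, a replicate block, and the omission of each library. The code was tested on simulated data. Motifs were counted in RefSeq promoters.

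The members and lists were chosen with earlier results of these data known. Pathway genes are named by rule: the 3 largest rises and 3 largest falls with a mean of at least 10 CPM at MI 4 h, MI 24 h and Luc 48 h against sham, and the 5 genes most correlated with Mt2, Hmox1 and Slc7a11. Asah1, Ftl1 at 4 h and the genes called between AC and Luc hearts were named after their values were seen. Some genes that these rules name are not reported here.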

Additional observations from a re-analysis of the deposited data

Results flagged for a closer look

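In 3 of 50 checks of a library's distance from the others of its group, where about 1 in 20 is flagged by chance, a single library stood apart: Mt1 in AC library 3 at 4 h (295.5 CPM, the others 191.7 to 196.5), Mt1 in Luc library 1 at 4 h (311.8 CPM, the others 171.1 to 175.5), and Srxn1 in AC library 4 at 48 h (42.1 CPM, the others 34.6 to 35.5).

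A difference between times was called in 21 cases. In uninjected hearts the change from 4 to 24 h was 4.36 for Hmox1, 3.24 for Slc7a11, 2.54 for Srxn1, 2.47 for Mt2, 1.92 for Mt1, 1.92 for Txnrd1, 1.70 for Gclm, 1.11 for Nfe2l2, 0.95 for Gclc and -0.56 for Nqo1 on the log2(CPM + 1) scale. In Luc hearts the same change was 2.30 for Mt2, 2.13 for Mt1, 2.08 for Hmox1, 1.16 for Slc7a11, 1.0 for Gclc, 0.94 for Nfe2l2 and 0.77 for Gclm. From 24 to 48 h it was -2.60 for Mt2, -2.22 for Mt1, -0.67 for Gclc and 1.03 for Srxn1. The Luc rise of Slc7a11 from 4 to 24 h was not called without Luc A at 24 h (limma q = 0.28) or without Luc 2 or 4 at 4 h (q = 0.06 and 0.059).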

How the results depend on the processing

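No member's difference reversed while called under any setting. The number of members called at 4 h without injection was 2, and became 4 with array weights, 1 with limma-voom and 1 to 3 with a library left out. For AC against Luc at 48 h it was 2, became 1 with only the groups compared, and ranged from 1 to 3 with a library left out. Leaving out a library gave 0 to 3 members for Luc against sham at 4 h, 0 to 2 for the AC effect at 48 against 4 h (1 with array weights) and 0 to 1 for that at 48 against 24 h, where Srxn1 was called without Luc 4 of 48 h (-1.30, q = 0.02). Leaving out Luc 4 also made the call of Txnrd1 for Luc 48 h against sham (q = 0.034), and leaving out Luc A of 24 h or Luc 1 of 48 h that of Nfe2l2 between these times (q = 0.037 and 0.049). Elsewhere the range was 9 to 10 (MI 24 h against sham and against 4 h), 6 to 8 (Luc 24 h against sham), 5 to 8 (Luc 48 h), 5 to 7 (Luc 24 against 4 h) and 3 to 5 (Luc 48 against 24 h). Of 1576 member values under other settings, 11 gained and 18 lost the call, and of 2940 with a library left out, 12 gained and 29 lost it.

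Labels shared between groups were not taken as pairs, since the correlations of their deviations ran from -0.26 to 0.34. With the replicate block, 2 members were called at 4 h without injection, 10 at 24 h and 10 between these times, 2 for AC against Luc at 48 h, 2 for Luc against sham at 4 h and 7 at 48 h, and 0 in the other comparisons it could be fitted to. It could not be fitted for Luc 24 h against sham or other times. At 4 h without injection the block ended the call of Hmox1 (q = 0.095) and made that of Mt1 (q = 0.0076). The number of all genes called there was 296, from 117 with the block to 2500 with array weights. For AC against Luc at 48 h it was 1926 (823 with the filter at 10 CPM to 3178 with array weights), and at 4 and 24 h it was 1 (1 to 6 and 0 to 8). It was 8236 (5316 to 9109) at 24 h without injection and 7976 (5173 to 8753) between 4 and 24 h. For Luc against sham it was 194 (122 to 580), 4275 (2817 to 4577) and 3774 (1504 to 3931) at 4, 24 and 48 h, and for Luc at 24 against 4 h it was 4058 (2548 to 6147). For the AC effects it was 1 (1 to 8) at 24 against 4 h, 421 (103 to 1621) at 48 against 4 h and 322 (71 to 991) at 48 against 24 h. Values under 1 CPM rest on few reads, and 2 sham libraries limit the second table.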
